A study of Mus musculus with 6 samples.

Results

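The cadherins and non-clustered protocadherins are calcium-dependent adhesion proteins of the cell surface, and 35 protein-coding genes of the mouse carry the symbols Cdh or Pcdh followed by a number. They were taken by symbol from the 55450 genes in the count tables, without the clustered Pcdha, Pcdhb and Pcdhg genes, and comprise 23 Cdh and 12 Pcdh genes. Of these, 33 passed the filter on low counts and were tested together with all other genes that passed, 27939 in all. The set is wider than its usual name, since it also holds Cdh13, Cdh16, Cdh17, Cdh23, Cdh26 and Pcdh15, which are not classical cadherins. The samples were polyadenylated RNA of adult mouse cerebral cortex, in 3 libraries labelled heterozygous for Setd5 and 3 labelled wild type. Setd5 encodes a SET-domain chromatin protein. The labels name no age beyond adult, no sex, no strain and no altered part of the gene. Whether each library came from its own animal is not stated, so the p-values reflect spread between libraries that could be partly technical.

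Classical cadherins of type I and type II bind partners of the same kind on the neighbouring cell through their outermost extracellular domain and are held to actin by catenins on the inside. The delta protocadherins have longer ectodomains and other cytoplasmic tails, several of which recruit the WAVE complex that drives actin branching. In the cortex N-cadherin (Cdh2) holds excitatory synapses, type II cadherins are known for combinations that differ between layers, areas and neuron types, and delta protocadherins take part in axon growth and in the removal of synapses.

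Library totals ran from 82850628 to 92860628 counts. Setd5 stood at 69.5, 68.7 and 75.3 CPM in heterozygous libraries, against 111, 97.0 and 108 CPM in wild type libraries, with no overlap and a log2 difference of -0.56 (SE 0.07), and its adjusted p in edgeR's quasi-likelihood test was 0.258. CPM is the count scaled to library size with TMM factors. Markers of upper layer cortical neurons (Cux1, Cux2, Rasgrf2, Lamp5) were all detected, and summed to 551 to 648 CPM (heterozygous) and 574 to 649 CPM (wild type). Levels of other markers differed between libraries. Markers of striatal projection neurons, a cell type of the tissue under the cortex, summed to 930 CPM in wild type library 3, against 130 to 400 CPM in the other 5 libraries. Heterozygous library 3 and wild type library 3 had 865 and 784 CPM of Xist, and each of the other 4 had under 1 CPM. In bulk tissue fewer cells of a type and less RNA per cell cannot be told apart.

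Per transcript length, the 3 most abundant members were protocadherins. TPM, the count divided by the gene's exon length and scaled to the same sum in each library, averaged 80.2 for Pcdh9, 47.2 for Pcdh7 and 24.1 for Pcdh10, which together made up 35.6% of the summed TPM of all members. Cdh11, the type II cadherin first described in osteoblasts, followed with 23.9 TPM, and Pcdh1 with 20.2 TPM. Of the 35 members 18 lay above 10 TPM and 7 below 1 TPM. The median of those tested was 10.5 TPM, against 8.85 TPM over the protein-coding genes tested. N-cadherin, at 13.1 TPM, ranked in place 14, behind the type II cadherins Cdh6, Cdh8, Cdh9, Cdh10, Cdh12, Cdh18 and Cdh20, which lay between 14.5 and 17.8 TPM. At the low end of the tested members stood Cdh23 with 0.0680 TPM. The 2 members that did not pass the filter were Cdh17, the liver and intestine cadherin, with 4, 8 and 4 counts in heterozygous and 2, 0 and 2 counts in wild type libraries, and Cdh16, the kidney cadherin, with 0 counts in every library. With 3 counts as the floor for a count of 0, Cdh16 could have stood at up to 0.0326 to 0.0364 CPM, depending on the library (counting error only). Summed over all members the TPM was 441, 431 and 408 in heterozygous and 440.1, 399.8 and 438 in wild type libraries, so the total overlapped between genotypes. Bowtie2 does not split a read across an intron, so levels between members may depend on how exon junctions were handled. The longest exon block held a median of 48.1% of the exon length in the protocadherins and 37.9% in the cadherins.

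**Figure D1:**
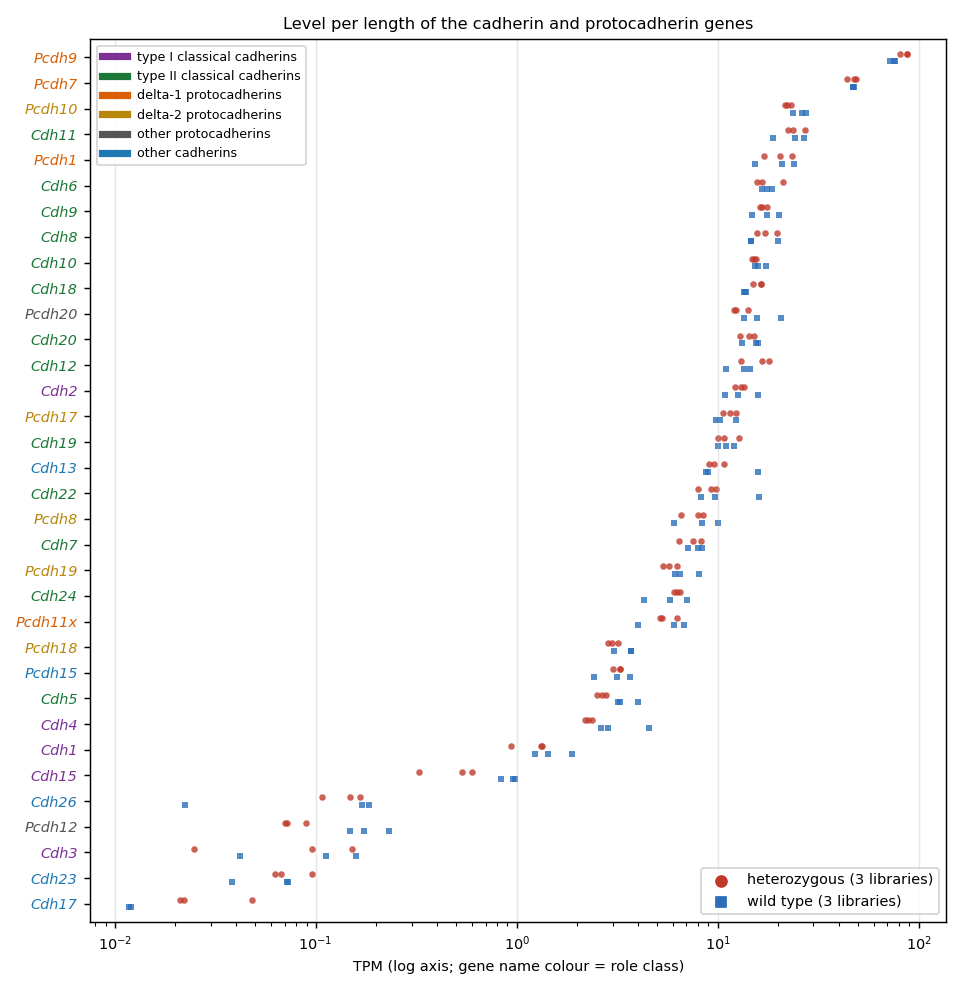
TPM of each cadherin and protocadherin gene in each library on a log axis, ordered by mean, with heterozygous libraries as circles and wild type libraries as squares just below them. Pcdh9 leads with a mean of 80.2 TPM, and the libraries of the genotypes overlap for most genes; Cdh16 and wild type library 2 of Cdh17 are at 0 and not drawn.

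Between genotypes 0 of the 33 members tested passed edgeR's quasi-likelihood test at a Benjamini-Hochberg adjusted p under 0.05, where 0% of all genes tested passed, and the adjusted p of members ran from 0.744 to 0.999. DESeq2 called 0 members where it called 0.222% of all genes (0.0573% higher, 0.165% lower), and 0 members were called by edgeR's likelihood ratio test or by limma-voom. At an unadjusted p under 0.05 there were 8 members, or 24.2%, against 5.83% of all genes tested. Of these, 7 were lower in heterozygous cortex (21.2% of members, 3.38% of all genes) and 1 was higher (3.03% of members, 2.44% of all genes). The libraries of the genotypes did not overlap for 9 members tested, or 27.3% against 11.7% of all genes. Of these, 8 were lower (24.2% of members, 5.85% of all genes) and 1 higher (3.03% of members, 5.88% of all genes). Fitted differences were below wild type for 22 members and above it for 11, where 50.1% of all genes lay below and 49.9% above. Log2 differences had a median of -0.08 over the members and -0.00053 over all genes tested. No chance level was computed for these counts, and the members share libraries, so the counts are a description. A two-sided exact permutation test of CPM gave p = 0.1 for each of the 9, and groups of 3 allow no smaller value. Any gene without overlap gets this p, so the test adds nothing to the separation by which the 9 were picked.

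**Figure D2:**
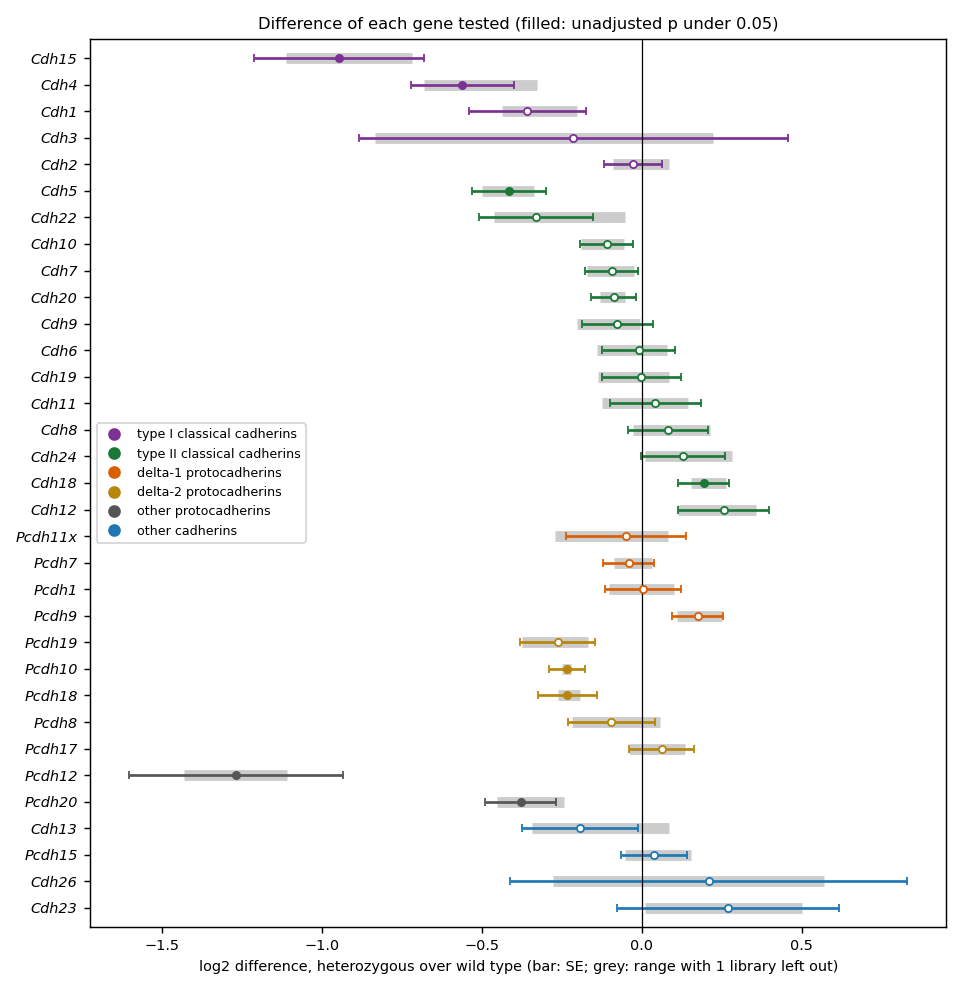
Log2 difference of heterozygous over wild type cortex for the 33 members tested, grouped by role, with the SE as a bar and the range over fits that leave out 1 library in grey. Filled points are the 8 members at an unadjusted p under 0.05, and all 8 grey ranges stay on the side of their point.

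Promoters are shown for members at an unadjusted p under 0.05, as those with the smallest p, although none was called. RefSeq promoters (GRCm38.p6, 250 bases before to 50 after the start) were matched by symbol for 22 of the 35 members, 5 of them among these 8. Capitals mark CG dinucleotides, the site of vertebrate DNA methylation. Pcdh10 (chr3:45378148-45378447, plus strand), Pcdh18 (chr3:49757267-49757566, minus strand), Pcdh20 (chr14:88471347-88471646, minus strand) and Cdh15 (chr8:122848124-122848423, plus strand) were lower, and Cdh18 (chr15:23036213-23036512, plus strand) was higher.
Pcdh10: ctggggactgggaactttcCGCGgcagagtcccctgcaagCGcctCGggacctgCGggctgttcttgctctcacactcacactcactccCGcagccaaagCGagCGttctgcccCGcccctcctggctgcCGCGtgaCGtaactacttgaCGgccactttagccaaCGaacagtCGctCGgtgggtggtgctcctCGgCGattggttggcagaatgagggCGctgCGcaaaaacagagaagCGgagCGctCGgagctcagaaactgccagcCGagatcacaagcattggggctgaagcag
Pcdh18: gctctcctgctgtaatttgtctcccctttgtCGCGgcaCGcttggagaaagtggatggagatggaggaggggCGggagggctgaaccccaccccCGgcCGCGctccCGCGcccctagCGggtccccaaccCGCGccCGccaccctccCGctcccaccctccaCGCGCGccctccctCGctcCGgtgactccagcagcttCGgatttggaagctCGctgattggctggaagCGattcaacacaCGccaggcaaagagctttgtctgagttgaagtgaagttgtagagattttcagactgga
Pcdh20: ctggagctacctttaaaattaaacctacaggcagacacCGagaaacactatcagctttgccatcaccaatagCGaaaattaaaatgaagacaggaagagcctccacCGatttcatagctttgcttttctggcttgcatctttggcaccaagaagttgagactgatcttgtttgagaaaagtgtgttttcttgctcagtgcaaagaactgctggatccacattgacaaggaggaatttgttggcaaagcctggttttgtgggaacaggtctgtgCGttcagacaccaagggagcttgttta
Cdh15: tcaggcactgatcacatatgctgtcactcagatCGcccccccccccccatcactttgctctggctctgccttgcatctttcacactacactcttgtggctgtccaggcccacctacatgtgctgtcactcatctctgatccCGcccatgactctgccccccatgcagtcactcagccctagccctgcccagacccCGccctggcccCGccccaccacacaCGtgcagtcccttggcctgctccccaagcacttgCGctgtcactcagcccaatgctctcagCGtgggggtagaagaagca
Cdh18: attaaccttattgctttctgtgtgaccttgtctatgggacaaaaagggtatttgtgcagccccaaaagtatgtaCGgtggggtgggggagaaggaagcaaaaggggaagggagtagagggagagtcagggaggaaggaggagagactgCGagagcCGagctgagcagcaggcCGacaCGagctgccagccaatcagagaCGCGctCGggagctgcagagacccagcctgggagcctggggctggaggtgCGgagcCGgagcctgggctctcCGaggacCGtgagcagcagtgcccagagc
The Pcdh10 window holds 24 CG dinucleotides and that of Pcdh18 holds 23, counts reached by 20.0% and 21.6% of all 27025 promoters in the table. The Pcdh20 window holds 4, Cdh15 holds 7 and Cdh18 holds 12, so the windows of the lower genes ran from 4 to 24. The 22 members with a promoter had a median of 13 CG dinucleotides, against 7 over all promoters. The start used for Cdh18 lies 487 kb inside the gene as GENCODE draws it. Those used for Cdh12 and Pcdh15 lie 662.2 and 722.5 kb inside. The letters CCAAT, searched on both strands, occur in 15 of the 22 windows and in 37.9% of all promoters, among them all 5 shown. TATAAA on both strands occurs in 2 windows, of Pcdh8 and Pcdh15, and in 14.2% of all promoters. CACGTG occurs in 1 window, of Cdh15, and in 7.24% of all promoters. A match of letters is a description of the window and not a binding site.

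All 5 type I classical cadherins had fitted levels under wild type (median log2 difference -0.36), as 50.1% of all genes tested did. Lower at an unadjusted p under 0.05 were 2 of the 5, against 3.38% of all genes. Cdh2 and Cdh3 changed sign in some of the other fits. Cdh4, or R-cadherin, known from retina and brain, stood at 7.58, 7.37 and 7.34 CPM in heterozygous libraries, against 9.09, 9.58 and 14.2 CPM in wild type libraries. The heterozygous values lay within a narrow band below every wild type library, and wild type library 3 stood highest. Group means were 7.43 ± 0.131 CPM (heterozygous) and 11.0 ± 2.85 CPM (wild type; SD, n = 3 per genotype). The log2 difference was -0.56 (SE 0.16), at an unadjusted p under 0.05 (edgeR adjusted p = 0.789). Without wild type library 3, the library with the high striatal level, the difference was -0.33, and with the striatal level as a covariate it was -0.47, both at an unadjusted p under 0.05. All 6 striatal markers had fitted levels below wild type and none was at 0, with sums of 189 to 399.8 CPM (heterozygous) and 129.5 to 929.5 CPM (wild type). Heterozygous library 3 had the highest of these sums after wild type library 3, at 399.8 CPM, but the lowest Cdh4, at 7.34 CPM.

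Cdh15, or M-cadherin, best known from muscle and cerebellar granule cells, was scarce at 0.468, 0.873 and 0.802 CPM in heterozygous libraries, against 1.19, 1.59 and 1.34 CPM in wild type libraries. These values come from 43, 72 and 73 counts in heterozygous and 101, 142 and 118 counts in wild type libraries, with no overlap. The log2 difference was -0.95 (SE 0.27), a heterozygous level 51.9% that of wild type (edgeR adjusted p = 0.789). Cdh1, the epithelial E-cadherin, stood at 2.68, 2.73 and 1.99 CPM in heterozygous libraries, against 3.80, 2.85 and 2.82 CPM in wild type libraries, without overlap but with a narrow gap between heterozygous library 2 and wild type library 3. Its log2 difference was -0.36 (SE 0.18, edgeR adjusted p = 0.864), and -0.20 without wild type library 1 or -0.23 without heterozygous library 3. Cdh2, the N-cadherin of neurons, was at 48.3, 47.3 and 45.6 CPM (heterozygous) and 44.7, 44.1 and 55.3 CPM (wild type). The groups overlapped, wild type library 3 stood apart above the rest, and the log2 difference was -0.03 (SE 0.09). Cdh3, the placental P-cadherin, had only 4 to 28 counts per library, and its values of 0.185, 0.0485 and 0.308 CPM (heterozygous) and 0.308, 0.247 and 0.0794 CPM (wild type) overlapped.

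Among the 13 type II cadherins 5 lay above and 8 below wild type, around a median log2 difference of -0.01. Among them the endothelial member had the most negative difference. Cdh5, the VE-cadherin of endothelial junctions, stood at 5.13, 5.01 and 4.89 CPM in heterozygous libraries, against 7.39, 6.78 and 5.87 CPM in wild type libraries. The group means were 5.01 ± 0.123 CPM (heterozygous) and 6.68 ± 0.764 CPM (wild type; SD, n = 3 per genotype), without overlap, and the log2 difference was -0.42 (SE 0.12, edgeR adjusted p = 0.789). The 6 endothelial markers listed besides it (Pecam1, Cldn5, Flt1, Tek, Kdr, Tie1) all had fitted levels below wild type, and none was at 0. Lower at an unadjusted p under 0.05 were 4 of the 6, against 3.38% of all genes. The summed level of the 6 was 66.4 to 68.0 CPM (heterozygous) and 78.9 to 82.4 CPM (wild type), also without overlap. Within wild type the markers and Cdh5 ran in opposite orders, with library 3 highest in the markers and lowest in Cdh5. Since the endothelial level separates the groups completely, its part in the Cdh5 difference cannot be told apart from genotype. Markers of pericytes and smooth muscle (Pdgfrb, Rgs5, Vtn, Abcc9, Kcnj8, Acta2) also had fitted levels under wild type in 6 of 6 cases, with sums of 241 to 247 CPM (heterozygous) and 251 to 310.4 CPM (wild type) and none at 0. Meningeal fibroblast markers (Col1a1, Col1a2, Dcn, Lum, Slc6a13, Slc22a6, Slc13a4) lay under wild type in 7 of 7 cases, none at 0, but their sums of 44.5 to 50.7 CPM (heterozygous) and 47.8 to 100.4 CPM (wild type) overlapped. The part of these cells in the members' differences was not tested.

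Cdh18, a neuronal type II cadherin, was the only member tested that stood higher without overlap. It was at 32.8, 33.6 and 31.6 CPM in heterozygous libraries, against 27.2, 31.5 and 27.0 CPM in wild type libraries, and heterozygous library 3 exceeded wild type library 2 by a small margin. The log2 difference was 0.19 (SE 0.08, edgeR adjusted p = 0.844). With both high-Xist libraries left out it was 0.18. Cdh12, the nearest member to it on chromosome 15, was at 50.1, 47.0 and 38.1 CPM (heterozygous) and 40.3, 43.1 and 29.8 CPM (wild type). Here the groups overlapped, wild type library 3 was lowest, and the log2 difference was 0.26 (SE 0.14), or 0.11 without that library. The other members on this chromosome are Cdh6, Cdh9 and Cdh10, and none had a fitted level above wild type. Cdh10, with the largest difference of them in size, was at 65.9, 68.4 and 72.6 CPM (heterozygous) and 77.1, 80.3 and 66.0 CPM (wild type). Its groups overlapped, and the log2 difference was -0.11 (SE 0.08). Cdh6, the K-cadherin, at 84.6, 63.5 and 69.5 CPM (heterozygous) and 74.2, 80.2 and 64.6 CPM (wild type), differed by -0.01 (SE 0.11). Cdh9, which in hippocampus is needed for mossy fibre synapses, at 27.4, 26.5 and 26.7 CPM (heterozygous) and 23.1, 31.2 and 30.7 CPM (wild type), differed by -0.08 (SE 0.11). The heterozygous values of Cdh9 lay close together inside the wider wild type range.

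Cdh22, known from pituitary and brain, was at 16.0, 15.4 and 13.8 CPM (heterozygous) and 15.8, 15.5 and 25.6 CPM (wild type). Wild type library 3 stood far above all other libraries, the log2 difference was -0.33 (SE 0.18), and without that library it was -0.05. Cdh11 was at 93.6, 109 and 92.7 CPM (heterozygous) and 106, 109 and 71.8 CPM (wild type) and Cdh8, a marker of subsets of cortical neurons, at 53.5, 68.5 and 62.0 CPM (heterozygous) and 68.2, 56.9 and 49.0 CPM (wild type). In both, wild type library 3 was the lowest of all libraries, the groups overlapped, and the log2 differences were 0.04 (SE 0.14) and 0.08 (SE 0.13). Cdh7 was at 36.8, 33.7 and 30.0 CPM (heterozygous) and 36.9, 36.1 and 34.4 CPM (wild type), overlapping, with heterozygous library 3 lowest and a log2 difference of -0.09 (SE 0.08). Cdh20, also on chromosome 1, was at 26.8, 25.6 and 24.1 CPM (heterozygous) and 27.3, 26.7 and 27.3 CPM (wild type). Wild type Cdh20 had the smallest spread of the members, and heterozygous library 1 reached into its range, with a log2 difference of -0.09 (SE 0.07). Cdh19, a cadherin of glial lineages and the nearest member to Cdh7, at 18.9, 20.6 and 25.4 CPM (heterozygous) and 18.9, 23.8 and 22.2 CPM (wild type), overlapped throughout with a log2 difference of -0.0012 (SE 0.12). Cdh24, at 9.94, 9.42 and 10.2 CPM (heterozygous) and 10.8, 7.53 and 8.68 CPM (wild type), also overlapped, with a log2 difference of 0.13 (SE 0.13).

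Delta-1 protocadherins held the most abundant members. Pcdh9 was at 263, 267 and 255 CPM in heterozygous libraries, against 228, 257 and 210.2 CPM in wild type libraries. Heterozygous library 3 lay just under wild type library 2, so the groups overlapped by that pair alone. The log2 difference was 0.18 (SE 0.08, edgeR adjusted p = 0.855), 0.25 without wild type library 2 and 0.11 without wild type library 3. Pcdh7 was at 229, 209.6 and 234 CPM (heterozygous) and 221, 255 and 216 CPM (wild type), overlapping, with a log2 difference of -0.04 (SE 0.08). Its exons share 2235 bases with an antisense gene, and since the library kit keeps no strand, reads of that stretch could belong to either gene. Pcdh1 was at 90.7, 80.4 and 69.1 CPM (heterozygous) and 81.3, 68.1 and 90.3 CPM (wild type). Its group means, 80.1 CPM (heterozygous) and 79.9 CPM (wild type), were nearly equal, and the log2 difference was 0.0027 (SE 0.12). The X-linked Pcdh11x was at 32.4, 39.0 and 33.5 CPM (heterozygous) and 41.8, 42.6 and 24.1 CPM (wild type), with wild type library 3 lowest of all and a log2 difference of -0.05 (SE 0.19).

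Of the 5 delta-2 protocadherins 4 had fitted levels under wild type, as 50.1% of all genes tested did, and the median log2 difference was -0.23. Pcdh10, also called OL-protocadherin, links neuronal activity to the removal of the scaffold PSD-95 at synapses in cultured mouse neurons. It stood at 162, 157 and 159 CPM in heterozygous libraries, against 184, 189.7 and 189 CPM in wild type libraries. Both groups were tight, and every heterozygous library lay below every wild type library with a wide gap. The group means were 159 ± 2.60 CPM (heterozygous) and 188 ± 2.95 CPM (wild type; SD, n = 3 per genotype), so the heterozygous level was 85.0% of wild type, with a log2 difference of -0.23 (SE 0.06). Its p in edgeR was the smallest among the members and ranked 84 of the 27939 genes tested, with an adjusted p of 0.744. With 1 library left out at a time the difference stayed between -0.25 and -0.22. A stretch of 154 of its 15888 exonic bases is shared with an antisense gene. Exonic bases are also shared with antisense genes in Pcdh8 (436 of 4538), Cdh9 (224 of 3539), Pcdh19 (57 of 10464) and Cdh8 (23 of 7740). Cdh12 shares 198 of 6305 with a gene on its own strand.

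Pcdh18, which lies on the same chromosome as Pcdh10, was at 7.52, 6.86 and 7.42 CPM in heterozygous libraries, against 8.77, 8.28 and 8.57 CPM in wild type libraries. The groups did not overlap, and the log2 difference was -0.23 (SE 0.09, edgeR adjusted p = 0.844). Pcdh19, an X-linked gene whose human counterpart causes an epilepsy mainly in females, was at 24.6, 27.0 and 30.5 CPM (heterozygous) and 37.0, 34.0 and 27.5 CPM (wild type). The groups overlapped by heterozygous library 3 and wild type library 3, which are also the pair with high Xist. The log2 difference was -0.26 (SE 0.12, edgeR adjusted p = 0.855), and -0.46 without both (edgeR adjusted p = 0.209). Without them Pcdh11x, the other X-linked member, differed by -0.24. With wild type library 3 alone left out, the differences were -0.38 for Pcdh19 and -0.27 for Pcdh11x. With a high or low Xist count as a term and all libraries kept, they were -0.26 and -0.0062.

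Pcdh8, or arcadlin, is induced by neuronal activity and takes N-cadherin off the synapse in rodent neurons. It was at 16.9, 16.2 and 13.8 CPM (heterozygous) and 20.0, 13.8 and 16.2 CPM (wild type), overlapping, with a log2 difference of -0.10 (SE 0.14). The 7 activity-induced genes listed (Fos, Npas4, Egr1, Egr3, Arc, Junb, Nr4a1) were chosen with earlier results of these data known. All 7 had fitted levels above wild type, as 49.9% of all genes tested did. Higher at an unadjusted p under 0.05 were 5 of the 7, against 2.44% of all genes. The 7 summed to 695 to 1287 CPM (heterozygous) and 443 to 912 CPM (wild type). Their part in the Pcdh8 level was not tested, and its log2 difference was 0.058 without wild type library 1. Pcdh17, which groups presynaptic vesicles in corticostriatal circuits, was at 60.9, 71.7 and 69.3 CPM (heterozygous) and 70.8, 67.5 and 55.1 CPM (wild type), overlapping, with a log2 difference of 0.06 (SE 0.10).

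The remaining protocadherins both lay below wild type. Pcdh20 was at 34.4, 29.5 and 31.4 CPM in heterozygous libraries, against 38.0, 37.2 and 48.8 CPM in wild type libraries. The groups did not overlap and wild type library 3 was highest. Means were 31.8 ± 2.46 CPM (heterozygous) and 41.3 ± 6.45 CPM (wild type; SD, n = 3 per genotype), and the log2 difference was -0.38 (SE 0.11, edgeR adjusted p = 0.789). Without wild type library 3 it was -0.24. Pcdh12, an endothelial protocadherin, stood at 0.239, 0.194 and 0.198 CPM in heterozygous libraries, against 0.615, 0.528 and 0.386 CPM in wild type libraries. These values rest on 22, 16 and 18 counts in heterozygous and 52, 47 and 34 counts in wild type libraries, and the groups did not overlap. The log2 difference was -1.27 (SE 0.33), the largest in size among the members, or 41.5% of wild type (edgeR adjusted p = 0.775). The summed endothelial markers and Cdh5 separated the genotypes in the same direction, so genotype and endothelial RNA content cannot be told apart for Pcdh12 either. Within wild type the summed markers and Pcdh12 ran in opposite orders too, with library 3 highest in the sum and lowest in Pcdh12. Again, the single markers did not share that order.

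**Figure D3:**
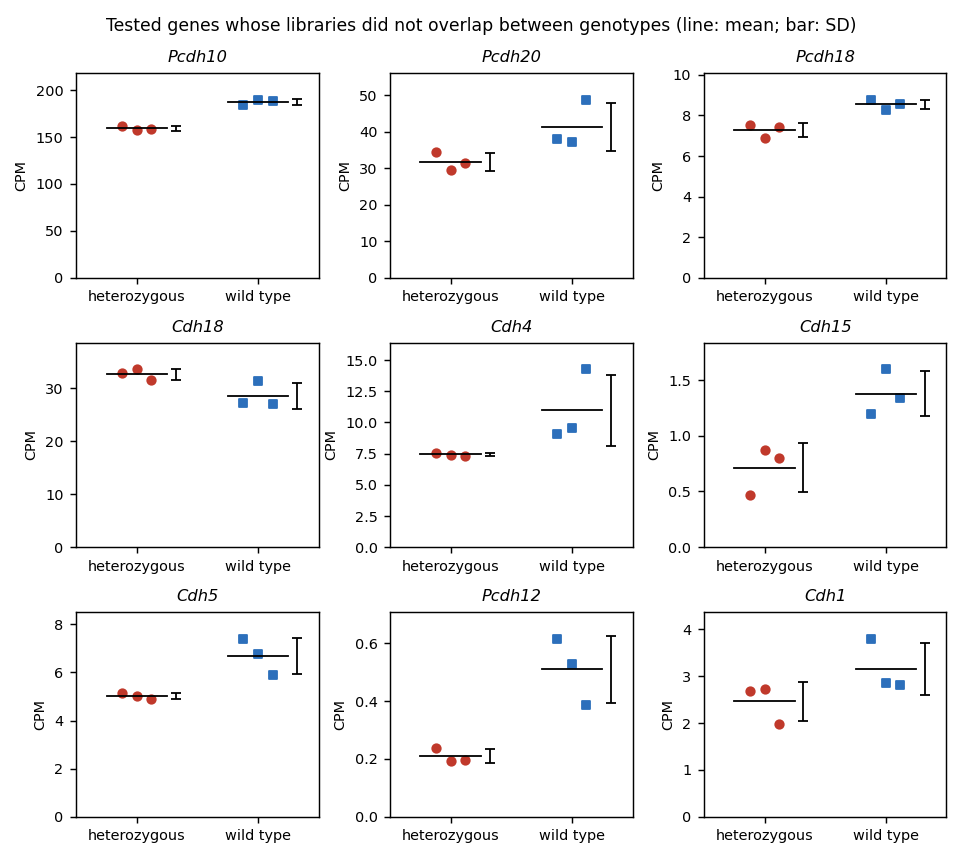
CPM of the 9 members tested whose libraries did not overlap between genotypes, with heterozygous libraries on the left and wild type libraries on the right, the mean as a line and the SD as a bar (n = 3 each). Cdh18 is higher in heterozygous libraries and the other 8 are lower, with Pcdh10 the tightest of the abundant ones.

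The other tested cadherins and Pcdh15 did not separate the genotypes. Cdh13, or T-cadherin, is held to the membrane by a lipid anchor and binds adiponectin. It was at 45.0, 48.3 and 55.9 CPM (heterozygous) and 44.4, 49.4 and 77.0 CPM (wild type). In both genotypes library 3 was highest, with wild type library 3 far above all others, and the log2 difference was -0.19 (SE 0.18), or 0.09 without that library. The summed striatal markers were also highest in wild type library 3, next in heterozygous library 3 and lowest in wild type library 1, as Cdh13 was. With the striatal level as a covariate the log2 difference of Cdh13 was -0.08. Pcdh15 and Cdh23 form the tip links of hair cells in the inner ear. Pcdh15 was at 31.5, 34.8 and 36.1 CPM (heterozygous) and 38.4, 29.1 and 32.2 CPM (wild type) with a log2 difference of 0.04 (SE 0.10), and Cdh23 at 0.468, 0.728 and 0.527 CPM (heterozygous) and 0.284, 0.618 and 0.522 CPM (wild type) with 0.27 (SE 0.35). Per length Pcdh15 was the more abundant, with 3.14 against 0.0680 TPM. Cdh26 had 18, 12 and 21 counts in heterozygous and 19, 3 and 21 counts in wild type libraries and overlapped, with a log2 difference of 0.21 (SE 0.62).

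**Figure D4:**
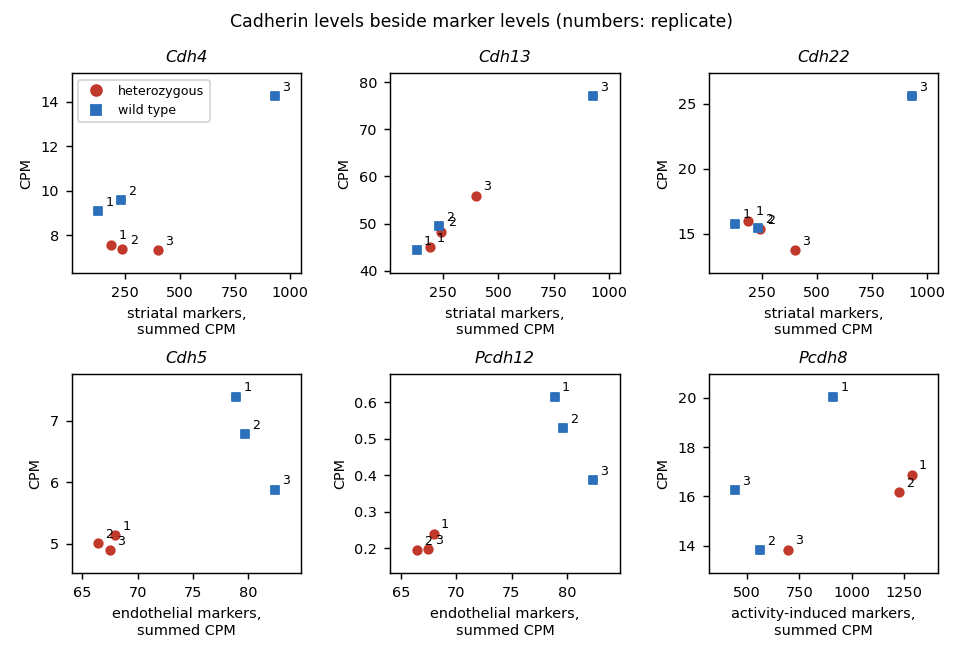
CPM of 6 members beside the summed CPM of a marker list in each library (numbers give the replicate), with heterozygous libraries as circles and wild type libraries as squares. Wild type library 3 has the highest striatal level together with the highest Cdh4, Cdh13 and Cdh22. Heterozygous library 3 has the next highest striatal level, but the lowest Cdh4 and Cdh22. The endothelial level separates the genotypes as Cdh5 and Pcdh12 do, and Pcdh8 does not separate them.

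Many members are very long genes and lie in groups. In GRCm38, 8 of the 35 are on chromosome 8, where Cdh1 and Cdh3 lie side by side, and 5 each on chromosomes 14 and 15. The median span was 123 kb, against 17.4 kb over all protein-coding genes, and 19 members exceed 100 kb, as 11.4% of protein-coding genes do. Pcdh10 (ENSMUSG00000049100.15) spans chr3:45378398-45435623 on the plus strand and Pcdh18 (ENSMUSG00000037892.13) chr3:49743296-49757325 on the minus strand. Pcdh20 (ENSMUSG00000050505.7) spans chr14:88464743-88471396 on the minus strand. Of the separated cadherins Cdh4 (ENSMUSG00000000305.12) lies at chr2:179442431-179899373 and Cdh18 (ENSMUSG00000040420.15) at chr15:22549022-23474418, both on the plus strand. Also on the plus strand, 3 lie on chromosome 8, with Cdh5 (ENSMUSG00000031871.9) at chr8:104101625-104144511, Cdh1 (ENSMUSG00000000303.12) at chr8:106603351-106670246 and Cdh15 (ENSMUSG00000031962.6) at chr8:122847966-122867397. Pcdh12 (ENSMUSG00000024440.13) lies on chromosome 18. Of the 6 members over 500 kb, 4 had fitted levels above wild type, which were Pcdh9, Cdh12, Cdh18 and Pcdh15, and 2 below, Cdh13 and Pcdh11x, with a median log2 difference of 0.11. Of the 27 shorter members tested 7 lay above and 20 below, with a median of -0.09. With 1 library left out, the signs of Pcdh15, Cdh13 and Pcdh11x changed in some fits. The difference between long and short members was not tested, and no share over all genes of these lengths was computed.

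Partners of the cadherins were read from lists that, like the members, were chosen with earlier results of these data known. Of 11 catenins and junction linkers 0 passed edgeR's test in either direction and 0 stood at an unadjusted p under 0.05, 3 lying above and 8 below wild type around a log2 median of -0.04. Beta-catenin (Ctnnb1), which ties classical cadherins to alpha-catenin, was at 513, 506 and 503 CPM (heterozygous) and 504, 526 and 503 CPM (wild type). Pkp4, an armadillo protein of the p120 family, differed by -0.18 (SE 0.08) and Ctnnd2, the neuronal delta-catenin, by -0.10 (SE 0.06). Jup, or plakoglobin, differed by -0.16 (SE 0.11). Of 9 WAVE complex genes 0 passed the test and 0 stood at an unadjusted p under 0.05, with 4 above and 5 below wild type and a median of -0.02. Their smallest p values belonged to Wasf2 with -0.23 (SE 0.10), Nckap1 with -0.06 (SE 0.07) and Abi2 with 0.05 (SE 0.06).

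Among 16 other genes of the cadherin superfamily 0 passed the test, 5 lay above and 11 below wild type, and the median log2 difference was -0.10. The large protocadherin-like Fat1 differed by -0.22 (SE 0.12) and Fat4 by -0.17 (SE 0.10), while the calsyntenin Clstn2 differed by 0.13 (SE 0.08). The desmosomal cadherin Dsc2 was the single gene of this list at an unadjusted p under 0.05, at 0.544, 0.473 and 0.516 CPM in heterozygous libraries, against 0.698, 0.741 and 0.794 CPM in wild type libraries, and it is named after its values were seen. Of 8 proteases that process cadherins 0 passed and 0 stood at an unadjusted p under 0.05, with 2 above and 6 below wild type and a median of -0.04. Adam10, which sheds the ectodomain of N-cadherin, was at 93.9, 95.5 and 92.0 CPM (heterozygous) and 99.8, 101 and 99.6 CPM (wild type), without overlap and with a log2 difference of -0.09 (SE 0.05). The gamma-secretase subunits Aph1a and Ncstn differed by 0.13 (SE 0.09) and 0.08 (SE 0.06), both higher without overlap. Of these 8 proteases 2 were higher and 2 lower without overlap, where the groups did not overlap for 11.7% of all genes tested. Of 4 nectins 0 passed and 0 stood at an unadjusted p under 0.05, with 2 above and 2 below wild type and a median of -0.11. Nectin3 differed by -0.25 (SE 0.12), Nectin4 by -0.26 (SE 0.18) and Nectin1 by 0.14 (SE 0.15).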

How the data were processed

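Cortex RNA of 6 libraries was compared between the genotypes named in the labels. Replicates are numbered by record order and were not paired. RNA extraction used Trizol with a DNase I step, and the TruSeq RNA Library Prep Kit v2 gave the libraries, per the labels' protocols. That kit keeps no strand information. The deposited values are raw counts per gene in whole numbers. The submitters' processing notes name the builds mm10 and GRCm38.p6 and, among the tools, Bowtie2 2.3.4.3 beside featureCounts, FastQC and DESeq2. The strand setting is not given in the sources used here.

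GENCODE M21 supplied symbols, positions and exon lengths and matched all 55450 identifiers. After filterByExpr (minimum count 10, minimum total 15), 27939 genes were tested with edgeR 4.0.16 (TMM factors, glmQLFit and glmQLFTest, R 4.3.3) at a Benjamini-Hochberg adjusted p of 0.05. The same code was tested on simulated data. Of the members tested, Cdh26 reached 10 counts in every library of only 1 genotype. TPM used the union of exons. Every pair of libraries differed beyond sampling noise (chi-square per gene from 10.9 to 85.2). This value was 44.5 to 85.2 within wild type, 10.9 to 52 within heterozygous and 15.9 to 70.4 between genotypes. Libraries of the same genotype were thus not always the closest. Alternatives were DESeq2 1.42.0, limma-voom (limma 3.58.1), the likelihood ratio test, other scalings and filters, and each library left out.

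Members and gene lists were chosen with earlier results of these data known. The rule for named genes takes members at an unadjusted p under 0.05, or without overlap at a mean of at least 1 CPM, the 3 highest by TPM, the highest of each role class and the lowest that passed the filter. The other members are also given, so that every member is accounted for. Each partner list gives up to 3 genes by smallest p at a mean of at least 1 CPM, and Ctnnb1 and Dsc2 were added after their values were seen. Some marker lists are not reported here.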

Additional observations from a re-analysis of the deposited data

How the results depend on the processing

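No member was called in any of the 18 alternatives. Over all genes, where edgeR's quasi-likelihood test called 0, DESeq2 called 62 genes (0.222%), the likelihood ratio test 29 (0.104%), edgeR without a filter on low counts 6 (0.0142%) and limma-voom with quality weights 2 (0.00716%). With 1 library left out this ranged from 0 to 2 genes, or 0% to 0.00697%, the highest without wild type library 2. In the main fit of all 6 libraries, 5.83% of genes stood at an unadjusted p under 0.05. The 8 members at an unadjusted p under 0.05 became 6 to 11 over the alternatives and over the fits with 1 library left out, 7 without heterozygous library 1 and 6 without heterozygous library 2. The median over members lay between -0.10 and -0.05. Pcdh10, Pcdh20, Cdh4, Cdh15, Cdh5 and Pcdh12 stood at an unadjusted p under 0.05 in every fit that held them, whereas Cdh18 did not in 7 fits and Pcdh18 not in 5, with p up to 0.116 and 0.12 (both without heterozygous library 2). Of the 33 members tested 17 kept their sign throughout and 16 did not.

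Sign changes came with library totals for Pcdh1 (-0.016), with the test widened to all genes that had a count for Pcdh1 (-0.0075), and with quality weights for Pcdh15 (-0.014), Cdh2 (0.03), Cdh9 (0.015) and Cdh19 (0.0105). The striatal covariate, chosen after seeing the data like the 2 on Xist, turned Cdh2 (0.0033) and Cdh19 (0.0286). Leaving out the 2 libraries with high Xist counts turned Pcdh17 (-0.061), Pcdh15 (-0.027), Cdh2 (0.11), Cdh11 (-0.086), Cdh8 (-0.036) and Cdh22 (0.0078). With 1 library left out, log2 differences ranged over 0 in 14 members, which were Pcdh7 (-0.087 to 0.033), Pcdh1 (-0.10 to 0.10), Pcdh11x (-0.27 to 0.081), Pcdh17 (-0.039 to 0.14), Pcdh8 (-0.22 to 0.058), Cdh13 (-0.34 to 0.085), Pcdh15 (-0.053 to 0.155), Cdh26 (-0.28 to 0.57), Cdh2 (-0.091 to 0.085), Cdh3 (-0.83 to 0.22), Cdh11 (-0.13 to 0.14), Cdh6 (-0.14 to 0.078), Cdh8 (-0.027 to 0.21) and Cdh19 (-0.14 to 0.084). The endothelial level was tried as a covariate too, but it separates the genotypes completely, so its fit, with 16 of 33 signs turned and 0 members called, tests nothing. The cause of these changes was not tested. No paired analysis was possible because the labels carry no replicate numbers shared between genotypes. Cdh3 and Cdh26 had few counts and the largest SE of the members tested, 0.67 and 0.62, and Cdh17 was not tested.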

Other observations

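Spread between libraries was smaller in heterozygous cortex for most members. In 25 of the 33 tested, or 75.8%, the coefficient of variation of CPM over 3 libraries was below that of wild type cortex, as it was for 64% of all genes tested. Its median over members was 9.06% in heterozygous and 14.8% in wild type cortex, against 9.2% and 13.05% over all genes tested. The difference in spread was not tested.

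Wild type library 3 held the highest or lowest level of 14 of the 33 members, where it held such a level for 49.3% of all genes tested. Heterozygous library 1 did so for 6 members, the fewest of the 6 libraries, and for 28.5% of all genes.

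Other cell type markers differed in sum as follows, each list without a gene called. Astrocyte markers (Aqp4, Gja1, Slc1a3, Aldh1l1, Gfap) summed to 1054 to 1202 CPM (heterozygous) and 1232 to 1245 CPM (wild type), without overlap. Microglia markers (Cx3cr1, P2ry12, Tmem119, C1qa, Csf1r) summed to 219 to 244 CPM (heterozygous) and 239 to 275 CPM (wild type). Their part in the members' differences was not tested.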
